A study of Mus musculus with 8 samples.

Results

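A set of 7 genes tied to touch sensing and nerve cells were followed in hair follicle stem cells that lacked the transcription factors NFIB, NFIX or both: Piezo2, Gap43, Mcam, Piezo1, Trpv4, Atoh1 and Isl1. They are 7 of the 46517 genes in the table. Piezo2, Gap43 and Mcam were chosen from their measured rise in knockouts against wild type, so their differences from wild type are described without a test. Piezo1, Trpv4, Atoh1 and Isl1 were taken for comparison, as genes that a Merkel cell or neural programme would also use.

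Nuclear factor I proteins are transcription factors that bind DNA as dimers, and NFIB and NFIX are expressed in the bulge, the niche of the hair follicle's stem cells. Piezo2 and Piezo1 are ion channels opened by mechanical force: Piezo2 serves light touch in sensory neurons and in Merkel cells, the epidermal touch cells, while Piezo1 acts in many non-neuronal tissues. Bulge stem cells are themselves contacted by touch-sensitive nerve endings. Atoh1 and Isl1 are transcription factors of the Merkel cell, and Gap43 is a protein of growing axons.

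The mice were male and their back skin was taken at postnatal day 70, in the second telogen, the resting phase of the hair cycle. Cells were sorted as negative for DAPI and Sca-1 and positive for integrin alpha 6 and CD34. The NFIB/X-dKO mice carried Sox9-CreER, NFIBfl/fl, NFIXfl/fl and R26-YFPfl/fl, where CreER is an inducible recombinase driven in Sox9-expressing cells and YFP marks recombined cells. The NFIB-cKO mice carried Sox9-CreER, NFIBfl/fl and R26-YFPfl/fl. The NFIX-cKO mice carried Sox9-CreER, NFIXfl/fl and R26-YFPfl/fl, and also 1 floxed NFIB allele (NFIBfl/+). NFIB-cKO and NFIX-cKO are called single knockouts below after their labels, and NFIB/X-dKO against NFIX-cKO compares NFIBfl/fl with NFIBfl/+. The WT mice carried NFIBfl/fl, NFIXfl/fl and R26-YFPfl/fl with no CreER. The gate for YFP was set for the knockouts only, so CreER, the YFP gate and the gene loss cannot be told apart against WT. The floxed YFP reporter was shared by all 4 groups. Each group held 2 libraries, each with its own animal number, by which libraries are named here. All 4 libraries with numbers in the 30s (NFIB/X-dKO 33 and 36, NFIX-cKO 32, WT 34) and all 4 with numbers in the 80s (NFIB-cKO 81 and 85, NFIX-cKO 88, WT 82) are called series below, which is a naming of animal numbers and not a recorded batch.

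Levels are in TPM, a measure per transcript length with an equal total in each library. Expected counts totalled 57173266 to 66854625 in the 5 libraries with count tables used here, while for both WT libraries and NFIB-cKO 81 no depth is known. Markers of the sorted cells were abundant in all 8 libraries: Krt5 and Krt15, basal and bulge keratins, ran at 11780 to 15703 and 7507 to 14487 TPM, and Cd34 at 811 to 1144 TPM. Nfib stood at 377 and 389 TPM in NFIB/X-dKO, 293 and 233 in NFIB-cKO, 200 and 148 in NFIX-cKO, against 230 and 209 in WT. Nfix stood at 125 and 148 TPM in NFIB/X-dKO, 154 and 147 in NFIB-cKO, 138 and 123 in NFIX-cKO, against 158 and 157 in WT. Nfib was thus not lower in the groups labelled as lacking NFIB, and Nfix lay below both WT libraries in all 6 knockout libraries, NFIB-cKO included. A gene's total includes exons outside a deleted stretch, so these totals do not check the deletion, and the groups are those of the labels. In bulk RNA, fewer cells of a type and less RNA per cell cannot be told apart.

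Of the 3 genes chosen for their rise, Piezo2 was the most abundant in NFIB/X-dKO and NFIB-cKO, and Mcam in NFIX-cKO and WT. Piezo2 was highest where both factors were lost. It had 54.07 and 57.68 TPM in the NFIB/X-dKO libraries, 15.75 and 20.50 TPM in NFIB-cKO, 10.66 and 8.58 TPM in NFIX-cKO, against 1.79 and 2.18 TPM in WT. No group overlapped another. The means were 55.9 ± 2.55 TPM in NFIB/X-dKO, 18.1 ± 3.36 in NFIB-cKO, 9.62 ± 1.47 in NFIX-cKO, against 1.985 ± 0.276 in WT (SD, n = 2 each), which is 28.1, 9.13 and 4.85 times the WT mean in the 3 knockouts. On the log2(TPM + 1) scale the differences from WT were 4.25, 2.67 and 1.83, each ± 0.19 (SE). Against WT of the same series they were 4.35 in NFIB/X-dKO and 2.58 in NFIB-cKO, and in NFIX-cKO 2.06 in the 30s and 1.59 in the 80s. The gene lies on the minus strand of chromosome 18 in the mm10 build (63010213 to 63387183).

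The differences between the knockouts were not what the genes were chosen on, though the knockout libraries are the same, so they were tested. Piezo2 was higher in NFIB/X-dKO than in NFIX-cKO by 2.43 ± 0.19 (limma on log2(TPM + 1), adjusted p = 0.00627), in a comparison where 0.46% of the 15434 genes tested were called higher and 0.324% lower. The expected counts gave a like size, with 12278 and 14126 counts in NFIB/X-dKO and 2589 and 1986 in NFIX-cKO, a difference of 2.46 ± 0.15 (edgeR's quasi-likelihood test, adjusted p = 0.0457). In that count test 0.12% of 18349 genes were called higher and 0.202% lower. These calls ended when either NFIB/X-dKO library was left out, with limma's adjusted p at 0.0853 without NFIB/X-dKO 33 and 0.128 without NFIB/X-dKO 36, and edgeR's at 0.173 and 0.222, while the difference stayed between 2.33 and 2.59 on counts.

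Against NFIB-cKO, Piezo2 was higher in NFIB/X-dKO by 1.58 ± 0.19 (limma, adjusted p = 0.0357), where 0.156% of genes were called higher and 0.0713% lower. That call was lost in 11 of 14 alternatives, with a difference of 1.34 to 1.76 and an adjusted p between 0.0163 and 0.41. It ended without either NFIB/X-dKO library (0.379 and 0.41), either NFIB-cKO library (0.217 and 0.167) or either WT library (0.0529 and 0.0538), and with the series as a covariate the difference was 1.53 (adjusted p = 0.197). Both NFIB/X-dKO libraries are of the 30s and both NFIB-cKO libraries of the 80s, so series and genotype cannot be told apart within that pair. Between the single knockouts Piezo2 differed by 0.84 (NFIB-cKO over NFIX-cKO, adjusted p = 0.265), where 0.0583% of genes were called higher and 0.0648% lower, so the order of these neighbours was not beyond their spread by the test.

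Gap43, which encodes a membrane protein of growth cones, went with Piezo2 but from a lower level. It had 10.20 and 13.62 TPM in NFIB/X-dKO, 3.10 and 1.98 TPM in NFIB-cKO, 0.65 and 0.64 TPM in NFIX-cKO, against 0.18 and 0.31 TPM in WT. The groups did not overlap, but the NFIX-cKO and WT levels were both under 1 TPM, and the gene passed the filter on low values only through NFIB/X-dKO and NFIB-cKO, either of which would have sufficed. Group means were 11.9 ± 2.42, 2.54 ± 0.792, 0.645 ± 0.00707 and 0.245 ± 0.0919 TPM (SD, n = 2 each) in NFIB/X-dKO, NFIB-cKO, NFIX-cKO and WT, and the first 3 were 48.6, 10.4 and 2.63 times the WT mean. The log2(TPM + 1) differences from WT were 3.36, 1.49 and 0.40, each ± 0.25 (SE), and with a pseudocount of 0.1 the first was 5.13.

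Counts showed how few reads lay under the low values: 506 and 713 in NFIB/X-dKO, 117 in NFIB-cKO 85, and 35 and 39 in NFIX-cKO. On these counts Gap43 was higher in NFIB/X-dKO than in NFIX-cKO by 3.95 ± 0.29 (edgeR, adjusted p = 0.0457, and 0.00729 with no filter). On log2(TPM + 1) the difference was 2.96 ± 0.25 (limma, adjusted p = 0.00694, and 0.0299 with no filter). As for Piezo2, leaving out NFIB/X-dKO 33 or 36 ended the calls, at adjusted p 0.0766 and 0.128 in limma and 0.173 and 0.331 in edgeR. Against NFIB-cKO the difference of 1.87 had an adjusted p of 0.0506, and between NFIB-cKO and NFIX-cKO that of 1.09 had an adjusted p of 0.265 (limma). The files list 2 transcripts of the gene, 1 of them protein coding (1420 bases), and the deposited mean length was 1420 bases in all 5 libraries. It lies on the minus strand of chromosome 16 (42248442 to 42340651, mm10).

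**Figure D1:**
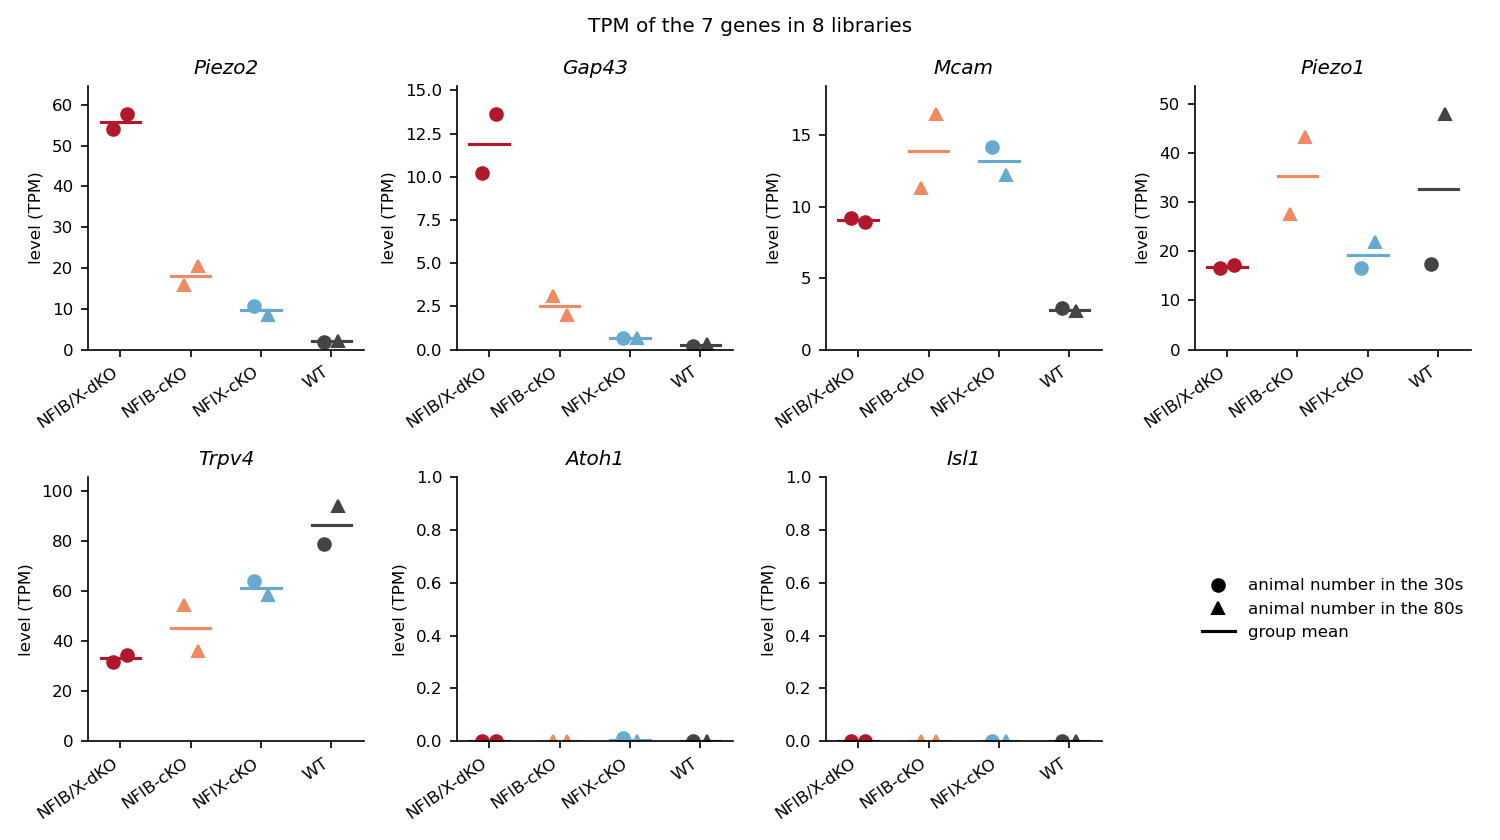
TPM (vertical axis, linear, one scale per gene) of the 7 genes in the 8 libraries, with NFIB/X-dKO, NFIB-cKO, NFIX-cKO and WT along the horizontal axis; circles are libraries of the 30s, triangles of the 80s, and lines are means of 2. Piezo2 and Gap43 descend over the 4 groups, Mcam is above WT in all 6 knockout libraries, Trpv4 is highest in WT, and Atoh1 and Isl1 lie at or near 0.

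Mcam, also called CD146, is an adhesion molecule of the immunoglobulin superfamily known from blood vessels and melanoma. Its level was not highest where both factors were lost. It had 9.20 and 8.93 TPM in NFIB/X-dKO, 11.33 and 16.46 TPM in NFIB-cKO, 14.20 and 12.22 TPM in NFIX-cKO, against 2.88 and 2.69 TPM in WT. All 6 knockout libraries stood above both WT libraries, and both NFIB/X-dKO libraries stood below all 4 single-knockout libraries. The means were 9.065 ± 0.191, 13.9 ± 3.63, 13.2 ± 1.40 and 2.785 ± 0.134 TPM (SD, n = 2 each) in NFIB/X-dKO, NFIB-cKO, NFIX-cKO and WT, or 3.26, 4.99 and 4.74 times WT in the knockouts. The gene lies on the plus strand of chromosome 9 (44134469 to 44142727, mm10).

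Between knockouts the lower Mcam level of NFIB/X-dKO passed neither limma nor edgeR in the main fits. The difference was -0.54 from NFIB-cKO (limma, adjusted p = 0.279) and -0.49 from NFIX-cKO (adjusted p = 0.343). On counts, with 939 and 951 in NFIB/X-dKO and 1595 and 1537 in NFIX-cKO, it was -0.81 ± 0.11 (edgeR, adjusted p = 0.098). DESeq2 gave an adjusted p of 0.00108 on the same counts. Of 7 alternatives to the count test, DESeq2 among them, 3 called the difference, so the call depended on the setting. The single knockouts differed by 0.05 (adjusted p = 0.958).

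The promoters of Mcam and of Trpv4, the gene of this set with the clearest fall, are shown because nuclear factor I dimers bind a palindrome whose half-site is TTGGC, which reads as GCCAA on the other strand. Each sequence is the RefSeq window of 300 bases around the gene's start on GRCm38.p6, 5′ to 3′ on the gene's strand, with half-sites in capitals. The Mcam window is chr9:44134408-44134707 on the plus strand, and the Trpv4 window is chr5:114658372-114658671 on the minus strand.
Mcam: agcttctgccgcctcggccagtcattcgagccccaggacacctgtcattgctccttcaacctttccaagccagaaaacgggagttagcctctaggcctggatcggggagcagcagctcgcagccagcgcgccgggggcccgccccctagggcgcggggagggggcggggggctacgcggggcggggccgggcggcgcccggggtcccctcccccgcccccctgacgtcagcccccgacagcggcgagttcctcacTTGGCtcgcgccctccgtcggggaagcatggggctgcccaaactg
Trpv4: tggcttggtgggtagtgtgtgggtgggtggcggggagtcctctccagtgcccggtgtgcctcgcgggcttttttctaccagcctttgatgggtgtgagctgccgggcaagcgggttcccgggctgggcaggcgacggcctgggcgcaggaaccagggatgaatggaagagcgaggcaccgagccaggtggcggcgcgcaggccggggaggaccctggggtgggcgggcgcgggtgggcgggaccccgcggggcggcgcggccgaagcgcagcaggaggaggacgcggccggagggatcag
The Mcam window held 1 half-site and the Trpv4 window 0. Only 5 of the 7 genes were among the promoters searched, and the windows of Atoh1 and Isl1 held 1 half-site each and that of Piezo1 0. Piezo2 and Gap43 were not among them, so whether their promoters hold half-sites was not tested. Of the 32851 promoters of this length that were searched, 46.7% held at least 1 half-site. The whole palindrome, 2 half-sites facing each other across 5 bases, was held by 12 of them (0.0365%). A half-site here is a match of letters, and no binding was measured.

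Trpv4, a calcium channel of keratinocytes that responds to warmth and to osmotic stress, moved the other way. It had 31.76 and 34.34 TPM in NFIB/X-dKO, 54.44 and 36.04 TPM in NFIB-cKO, 64.00 and 58.54 TPM in NFIX-cKO, against 78.92 and 94.21 TPM in WT. Both WT libraries stood above all 6 knockout libraries, and both NFIB/X-dKO libraries stood below the rest, with NFIB-cKO 85 close to them. Group means were 33.05 ± 1.82, 45.2 ± 13.0, 61.3 ± 3.86 and 86.6 ± 10.8 TPM (SD, n = 2 each) in NFIB/X-dKO, NFIB-cKO, NFIX-cKO and WT. The gene lies on the minus strand of chromosome 5 (114622152 to 114658421, mm10).

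Trpv4 fell in NFIB/X-dKO by 1.36 ± 0.21 on the log2(TPM + 1) scale against WT (limma, adjusted p = 0.0221), to 0.382 of the WT mean. In that comparison 1.62% of genes were called higher and 1.26% lower. The call ended without NFIB/X-dKO 33 (adjusted p = 0.194), NFIB/X-dKO 36 (0.164) or WT 82 (0.104) and with no filter on low values (0.0636), while the series as a covariate kept it (0.0391). The differences of -0.95 in NFIB-cKO (adjusted p = 0.111) and -0.49 in NFIX-cKO (adjusted p = 0.733) did not pass, in comparisons where 0.292% and 0.0842% of genes were called higher and 0.428% and 0.0648% lower. NFIB/X-dKO against NFIX-cKO gave -0.87 (limma, adjusted p = 0.137), and on counts of 3497 and 3916 against 7786 and 7842 it gave -1.16 ± 0.11 (edgeR, adjusted p = 0.0642, and DESeq2, 2.89e-08). Of 7 alternatives to this count test, DESeq2 among them, 4 called the difference. The neighbours NFIB/X-dKO and NFIB-cKO differed by -0.41 (adjusted p = 0.31) and NFIB-cKO and NFIX-cKO by -0.46 (adjusted p = 0.443).

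**Figure D2:**
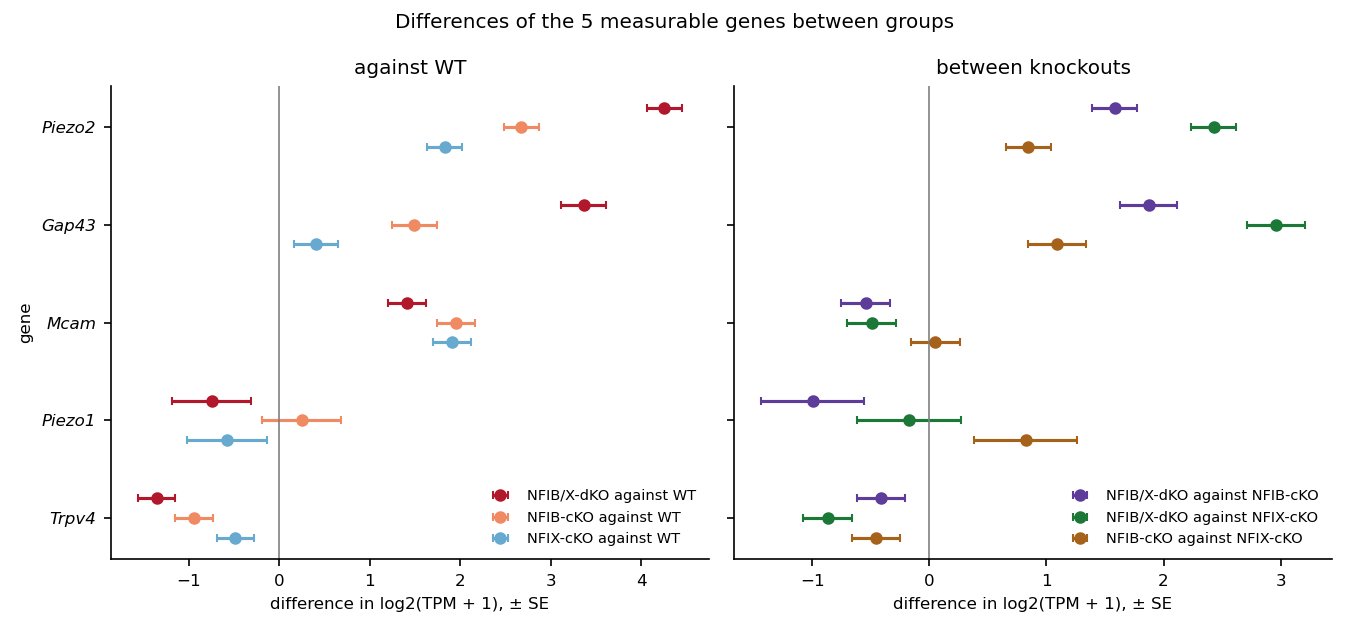
Difference in log2(TPM + 1) (horizontal axis) with its standard error for the 5 measurable genes (vertical axis), each knockout against WT on the left and knockouts against each other on the right. Piezo2 and Gap43 lie right of 0 in all 6 comparisons, Trpv4 lies left of 0 in all 6, and Mcam is near 0 between NFIB-cKO and NFIX-cKO. The groups share libraries, so the comparisons are not independent. Piezo2, Gap43 and Mcam were chosen on the differences of the left panel.

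Piezo1, the other force-gated channel of the family, did not go with Piezo2. It had 16.51 and 17.12 TPM in NFIB/X-dKO, 27.54 and 43.24 TPM in NFIB-cKO, 16.57 and 21.98 TPM in NFIX-cKO, against 17.37 and 47.92 TPM in WT. Its differences from WT were -0.75 ± 0.44 in NFIB/X-dKO (limma, adjusted p = 0.417), 0.24 in NFIB-cKO (0.889) and -0.58 in NFIX-cKO (0.889). Between the knockouts no difference passed either, with -0.996 for NFIB/X-dKO against NFIB-cKO (adjusted p = 0.292), -0.17 against NFIX-cKO (0.85) and 0.82 for NFIB-cKO against NFIX-cKO (0.512). On counts, NFIB/X-dKO differed from NFIX-cKO by -0.06 (edgeR, adjusted p = 0.821).

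The Piezo1 levels separated by animal number. The 4 libraries of the 30s lay between 16.51 and 17.37 TPM, 3 genotypes among them, and the 4 libraries of the 80s between 21.98 and 47.92 TPM. With genotype in the fit, the 80s exceeded the 30s by 0.90 ± 0.29 (limma, adjusted p = 0.0799), where 3.23% of genes were called higher and 12.6% lower in the 80s. Within the 30s, Piezo1 in NFIB/X-dKO differed from WT 34 by -0.04 and NFIX-cKO 32 differed from it by -0.06. Within the 80s the differences were larger, -0.46 in NFIB-cKO and -1.09 in NFIX-cKO 88 against WT 82. The same term was -0.05 for Piezo2, 0.07 for Gap43, -0.14 for Mcam and 0.06 for Trpv4.

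TPM divides by a mean transcript length, and for Piezo1 the deposited length itself differed between libraries. It was 5518 and 5755 bases in NFIB/X-dKO, 3549 bases in NFIB-cKO 85, and 5688 and 3361 bases in NFIX-cKO 32 and 88. The 2 libraries of the 80s with lengths thus had 0.611 times the mean length of the 3 of the 30s, a ratio that 0.155% of 9029 genes with several transcripts went below, and the median ratio of those genes was 0.9997. Without the length, NFIX-cKO 88 lay below NFIX-cKO 32, at 50.5 and 63.95 CPM (expected counts scaled per library total), where its TPM lay above. NFIB-cKO 85 stayed highest, at 97.5 CPM, against 57.2 and 60.9 in NFIB/X-dKO. The files list 9 transcripts for Piezo1, of which GENCODE M21 marks 2 as protein coding (8216 and 8219 bases) and the shortest has 429 bases. What part the split over transcripts has in the Piezo1 levels was not tested.

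For Piezo2 the lengths were 6320 and 6457 bases in NFIB/X-dKO, 5773 in NFIB-cKO 85 and 6188 and 5282 in NFIX-cKO, a ratio of 0.874 between the series. Its CPM, 215 and 231 in NFIB/X-dKO, 75.6 in NFIB-cKO 85, and 44.8 and 31.1 in NFIX-cKO, kept the order of the TPM. Mcam and Trpv4 had ratios of 0.998 and 0.987. Piezo1 lies on the minus strand of chromosome 8 (122481698 to 122551329, mm10).

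**Figure D3:**
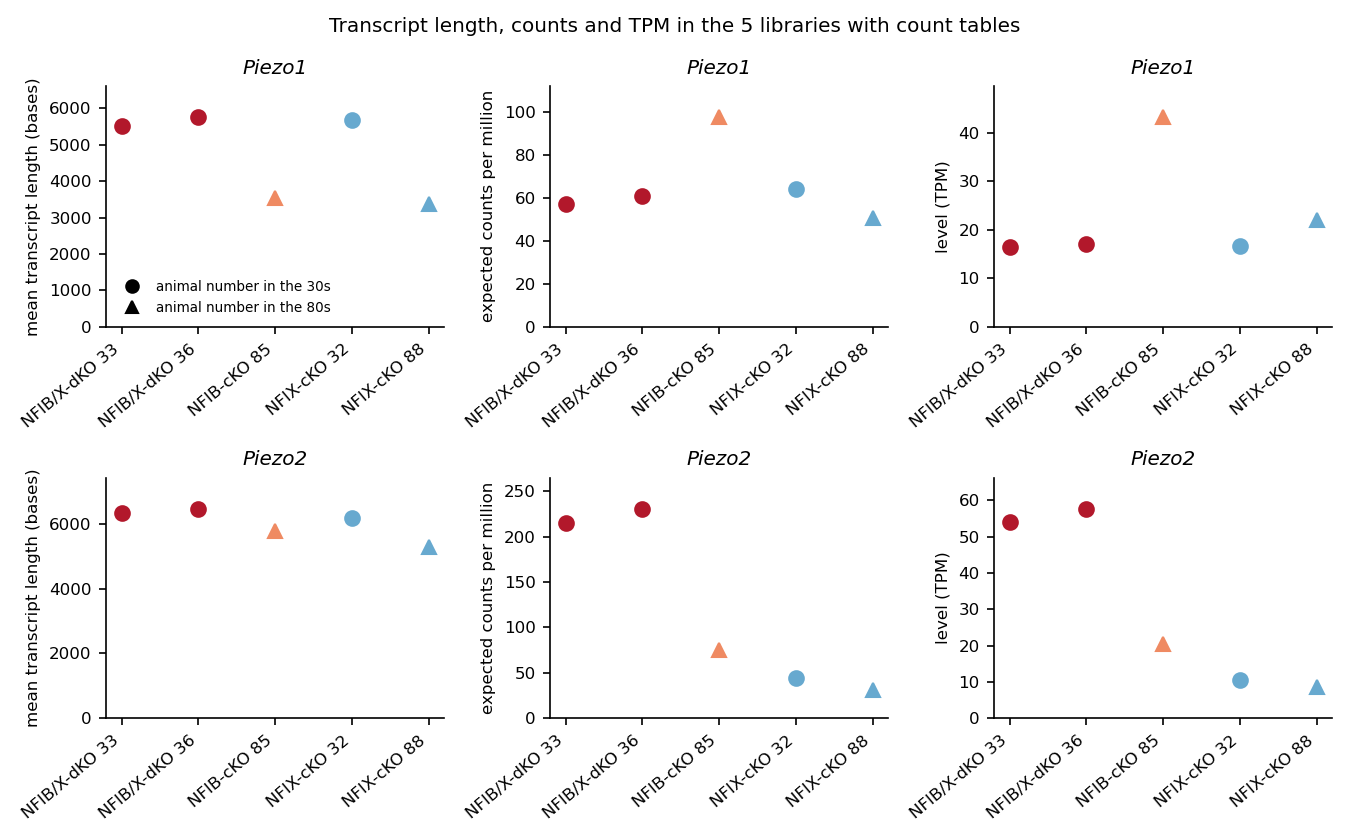
Mean transcript length in bases, expected CPM and TPM (vertical axes, from 0) of Piezo1 and Piezo2 in the 5 libraries with count tables (horizontal axis); circles are the 30s, triangles the 80s. Piezo1's length is 3361 and 3549 bases in the triangles and 5518 to 5755 in the circles, while Piezo2 keeps the same order of libraries in counts and in TPM.

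Atoh1 and Isl1, transcription factors of the Merkel cell, were not detected in any knockout beyond a single read. Isl1 was listed at 0 TPM in all 8 libraries. Atoh1 was listed at 0 in 7 and at 0.01 TPM in NFIX-cKO 32, which was 1 count. In the 5 libraries with counts, a count of 0 allows up to 3 counts, or 0.0449 to 0.0525 CPM. Both fell below the filter and were not tested. Atoh1 lies on chromosome 6 (64729125 to 64731245, plus strand) and Isl1 on 13 (116298281 to 116309689, minus strand, mm10).

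Of the other 16 Merkel cell genes, 4 passed the filter. Ncam1, an adhesion molecule also found on nerve and mesenchymal cells, passed only through NFIB/X-dKO, where it is high, and is set apart. Of the remaining 3, Hes6, Krt8 and Eno2, 0 were called by limma in NFIB/X-dKO against WT, where 1.62% of all genes were called higher and 1.26% lower. Their median difference was 0.67, against 0.16 for all genes tested. In NFIB-cKO against WT the median of the 4 was 0.80, against 0.005 for all genes. Eno2 had 2.15 and 1.90 TPM in NFIB/X-dKO, 7.12 and 6.08 in NFIB-cKO, 2.58 and 2.74 in NFIX-cKO, against 1.04 and 3.49 in WT. Its difference of 1.33 in NFIB-cKO did not pass (limma, adjusted p = 0.167). The list, Ncam1 included, summed to 48.01 to 56.89 TPM in NFIB/X-dKO, 43.38 to 43.42 in NFIB-cKO, 31.75 to 54.32 in NFIX-cKO, against 32.2 to 32.61 in WT. Most of that was Hes6, a repressor also found outside Merkel cells, with 41.89 and 36.13 TPM in NFIB/X-dKO, 26.04 and 21.91 in NFIB-cKO, 44.43 and 22.31 in NFIX-cKO, against 27.58 and 20.99 in WT. Ncam1 had 2.61 and 2.77 TPM in NFIB/X-dKO, 0.51 and 0.92 in NFIB-cKO, 0.56 and 0.30 in NFIX-cKO, against 0.18 and 0.27 in WT (1.59 ± 0.23, limma, adjusted p = 0.0207). Its adjusted p was 0.0333 with no filter, 0.0599 without WT 34 and 0.0769 without WT 82. Without either NFIB/X-dKO library it was below the filter. The factors Sox2 and Pou4f3 of the list stayed at or near 0 in every library, at most 0.03 and 0.02 TPM. Krt20, a keratin, was at most 0.08 TPM. Krt8, a keratin of Merkel cells and of simple epithelia, had 9.19 and 6.42 TPM in NFIB/X-dKO, 8.53 and 13.50 in NFIB-cKO, 6.03 and 5.11 in NFIX-cKO, against 2.72 and 6.80 in WT. NFIB-cKO lay above WT and NFIX-cKO, while NFIB/X-dKO and NFIX-cKO each overlapped WT. The Krt8 difference of 1.13 in NFIB-cKO from WT did not pass (limma, adjusted p = 0.276).

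Markers of sensory neurons were low in every group. The 15 genes summed to 1.54 to 2.01 TPM in NFIB/X-dKO, 2.84 to 3.03 in NFIB-cKO, 2.18 to 2.23 in NFIX-cKO, against 1.92 to 3.35 in WT, and 1 of the 15 passed the filter, with no call. Genes of Schwann cells, the glia of peripheral nerve, summed to 137 to 153 TPM in NFIB/X-dKO, 135 to 160 in NFIB-cKO, 80.75 to 122 in NFIX-cKO, against 129 to 145 in WT. Most of that was Egr2 and Erbb3, while Sox10, which defines the lineage, was at most 0.85 TPM. In NFIB/X-dKO against WT 0 of the 6 tested genes were called, where 1.62% of all genes were called higher and 1.26% lower. At these shares a lack of calls says little of either list, with so few genes tested.

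**Figure D4:**
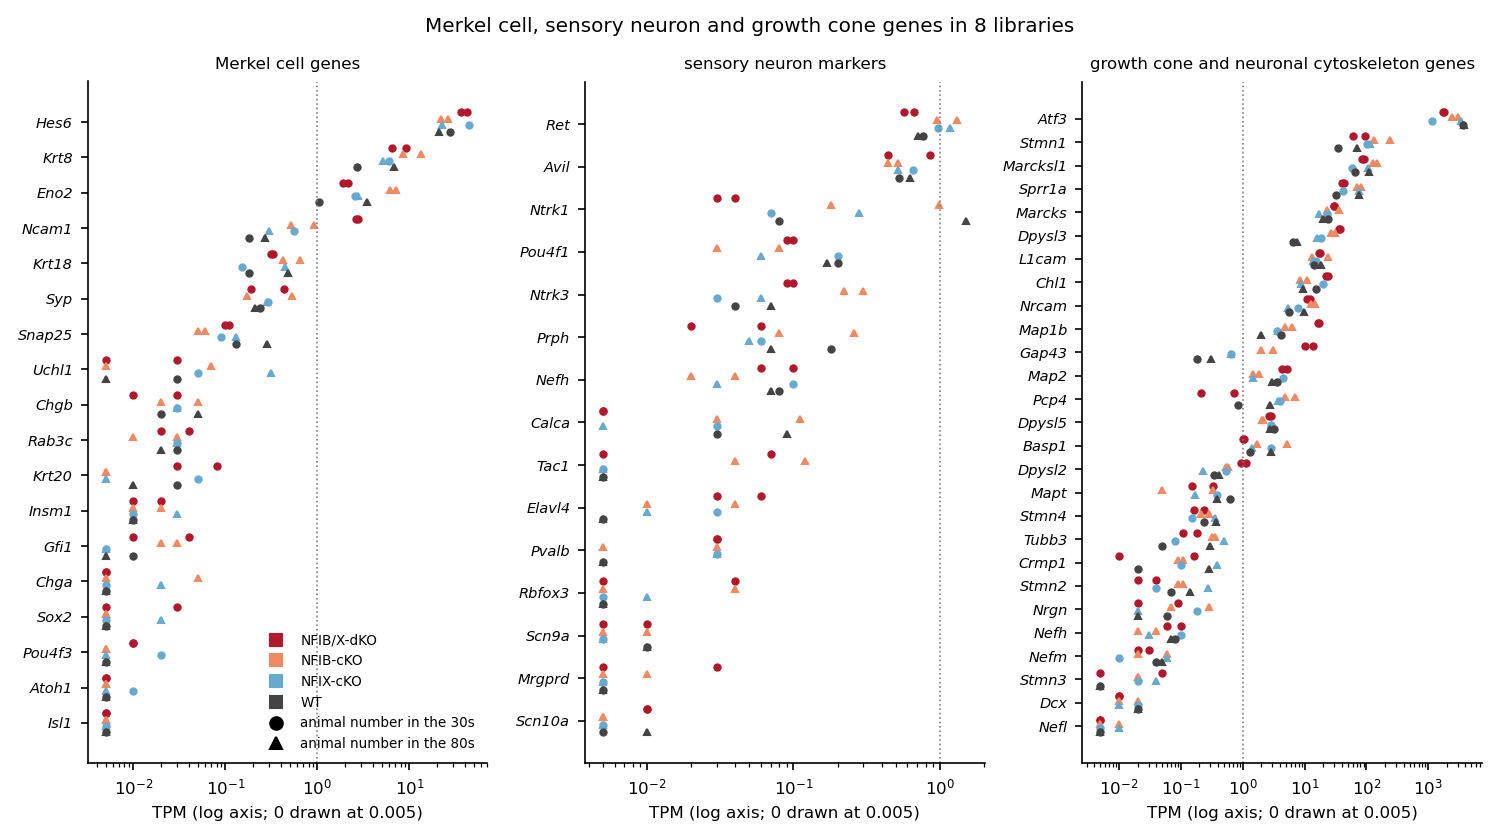
TPM (horizontal log axis, with 0 drawn at 0.005) of Merkel cell genes, sensory neuron markers and growth cone genes (rows) in 8 libraries, coloured by group; the dotted line marks 1 TPM. Of the Merkel cell genes, Atoh1, Isl1, Sox2 and Pou4f3 lie at 0.03 TPM or below in all groups, while Hes6 lies above 1 TPM in all. Gap43, Map1b and Dpysl3 spread by genotype above 0.03 TPM.

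Of 26 growth cone and neuronal cytoskeleton genes besides Gap43, 14 were tested. In the main fit 2 rose and 0 fell in NFIB/X-dKO against WT (1.62% and 1.26% of all genes), though some alternatives called a fall. The median difference of the 14 was 0.27 and that of all genes tested 0.16. The list summed to 2066 to 2197 TPM in NFIB/X-dKO, 2866 to 3567 in NFIB-cKO, 1461 to 3782 in NFIX-cKO, against 3872 to 4106 in WT. Most of that was Atf3, with 1724 and 1827 TPM in NFIB/X-dKO, against 3661 and 3769 in WT (-1.065, limma, adjusted p = 0.284). Dpysl3, a collapsin response mediator protein of axon growth, had 38.09 and 36.04 TPM in NFIB/X-dKO, 26.55 and 31.09 in NFIB-cKO, 18.72 and 15.61 in NFIX-cKO, against 6.45 and 7.63 in WT. Its order followed that of Piezo2, with no overlap of groups. It rose by 2.25 in NFIB/X-dKO (limma, adjusted p = 0.00252) and by 1.89 in NFIB-cKO (0.00716) against WT, and by 1.07 in NFIB/X-dKO against NFIX-cKO (0.0451), a call that none of 13 alternatives kept.

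Map1b, a microtubule-associated protein of growing axons, had 17.15 and 16.35 TPM in NFIB/X-dKO, 4.80 and 6.37 in NFIB-cKO, 3.64 and 3.76 in NFIX-cKO, against 4.15 and 2.01 in WT. It stood apart in NFIB/X-dKO alone, and WT and NFIX-cKO overlapped. It rose by 2.17 against WT (limma, adjusted p = 0.0119) and by 1.92 against NFIX-cKO (0.0389). The call against WT ended without NFIB/X-dKO 33 (0.124) or 36 (0.118), and 9 of 13 alternatives ended that against NFIX-cKO. The call of Dpysl3 in NFIB/X-dKO against WT held in all 13 alternatives, and that in NFIB-cKO ended without NFIB-cKO 81 (0.0841) or 85 (0.0909).

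Among the proteins reported to bind or tune Piezo channels, 5 of 7 were tested, and 2 rose in NFIB/X-dKO against WT and 0 fell, where 1.62% of all genes were called higher and 1.26% lower. Their median difference was 0.03, below the 0.16 of all genes. Stom, a stomatin that scaffolds ion channels in the membrane, had 82.97 and 98.50 TPM in NFIB/X-dKO, 37.42 and 55.36 in NFIB-cKO, 35.59 and 28.73 in NFIX-cKO, against 18.90 and 19.17 in WT. It rose by 2.19 against WT (limma, adjusted p = 0.00513), a call that ended without NFIB/X-dKO 36 (0.0553). Pkd2, a polycystin cation channel, had 47.35 and 49.43 TPM in NFIB/X-dKO, 33.70 and 31.83 in NFIB-cKO, 22.77 and 20.06 in NFIX-cKO, against 26.17 and 22.92 in WT, and rose by 0.95 (0.0202). Both were also called against NFIX-cKO, Pkd2 by 1.14 (0.0257) and Stom by 1.47 (0.0389), but 6 of 13 alternatives ended the first of these calls (adjusted p up to 0.298) and 12 of 13 the second (up to 0.372). The Pkd2 call against WT ended without NFIB/X-dKO 33 (0.194), NFIB/X-dKO 36 (0.221), either NFIB-cKO library (0.0508 and 0.0506) or WT 82 (0.0647). Stoml3, the stomatin that sensitises Piezo2 in mouse sensory neurons, was at 0.59 and 0.82 TPM in NFIB/X-dKO, 0.51 and 0.30 in NFIB-cKO, 0.46 and 0.19 in NFIX-cKO, against 0.45 and 0.41 in WT, below the filter.

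Of 35 other channels that sense force or temperature, 22 were tested, and 0 rose and 1 fell in NFIB/X-dKO against WT by limma, where 1.62% of all genes were called higher and 1.26% lower. Their median difference was 0.06, below the 0.16 of all genes. Kcnk2, a potassium channel opened by membrane stretch, had 15.15 and 15.88 TPM in NFIB/X-dKO, 23.48 and 15.98 in NFIB-cKO, 18.68 and 26.23 in NFIX-cKO, against 43.37 and 36.14 in WT. It fell by 1.30 (adjusted p = 0.0384), a call that 8 of 13 alternatives ended, among them leaving out any NFIB/X-dKO, NFIB-cKO or WT library (0.0506 to 0.253).

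Of 15 genes of touch end organs and neurotrophic factors, 12 were tested, and 1 rose and 0 fell in NFIB/X-dKO against WT, where 1.62% of all genes were called higher and 1.26% lower. Their median difference was -0.32, below the 0.16 of all genes, and the neurotrophic factors Gdnf (-0.92, limma, adjusted p = 0.116) and Ntf3 (-0.55, 0.257) and the receptor Ntrk2 (-0.78, 0.143) lay below WT without passing. Bdnf (0.93, limma, adjusted p = 0.204) and Ntf5 (0.56, 0.186) of the same list lay above WT, also without passing. All of these genes were named after their values were seen. Egfl6, a matrix protein that bulge cells of mouse lay down where touch-sensitive nerve endings contact the follicle, had 283.59 and 292.13 TPM in NFIB/X-dKO, 290.62 and 259.90 in NFIB-cKO, 131.00 and 142.96 in NFIX-cKO, against 85.56 and 100.70 in WT. NFIB/X-dKO and NFIB-cKO overlapped and stood above the other groups. It rose by 1.62 in NFIB/X-dKO (limma, adjusted p = 0.0028) and by 1.56 in NFIB-cKO (0.00554) against WT, and by 1.07 in NFIB/X-dKO against NFIX-cKO (0.0263). The first call held in all 13 alternatives, the second ended without NFIB-cKO 81 (0.0841) or 85 (0.0707), and the last ended in 8 of 13.

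Mcam's ligands and related adhesion molecules gave 13 tested genes of 16, of which Ncam1 and Cadm3 passed the filter only through the group where they are high, NFIB/X-dKO and WT in turn. Of the other 11, 3 rose and 0 fell in NFIB/X-dKO against WT, where 1.62% of all genes were called higher and 1.26% lower, and their median difference was 0.43, against 0.16 for all genes. The 3 were Alcam, a related immunoglobulin adhesion molecule (1.08, limma, adjusted p = 0.0209), Lgals3, a galectin that binds MCAM (0.93, 0.023), and Cadm1 (1.10, 0.0262). Alcam had 246 and 262 TPM in NFIB/X-dKO, 200 and 176 in NFIB-cKO, 146 and 163 in NFIX-cKO, against 137 and 104 in WT. Lgals3 had 1928 and 1927 TPM in NFIB/X-dKO, 1632 and 1737 in NFIB-cKO, 1471 and 1715 in NFIX-cKO, against 921 and 1112 in WT. Without NFIB/X-dKO 33, or without 36, 0 of the 13 were called by limma, and without WT 34 or WT 82 the rises numbered 2 and 1. Cadm1 and Cadm3 were named after their values were seen, and Cadm3 had 23.36 TPM in WT 34 and 4.67 in WT 82, against at most 0.70 TPM in any knockout.

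**Figure D5:**
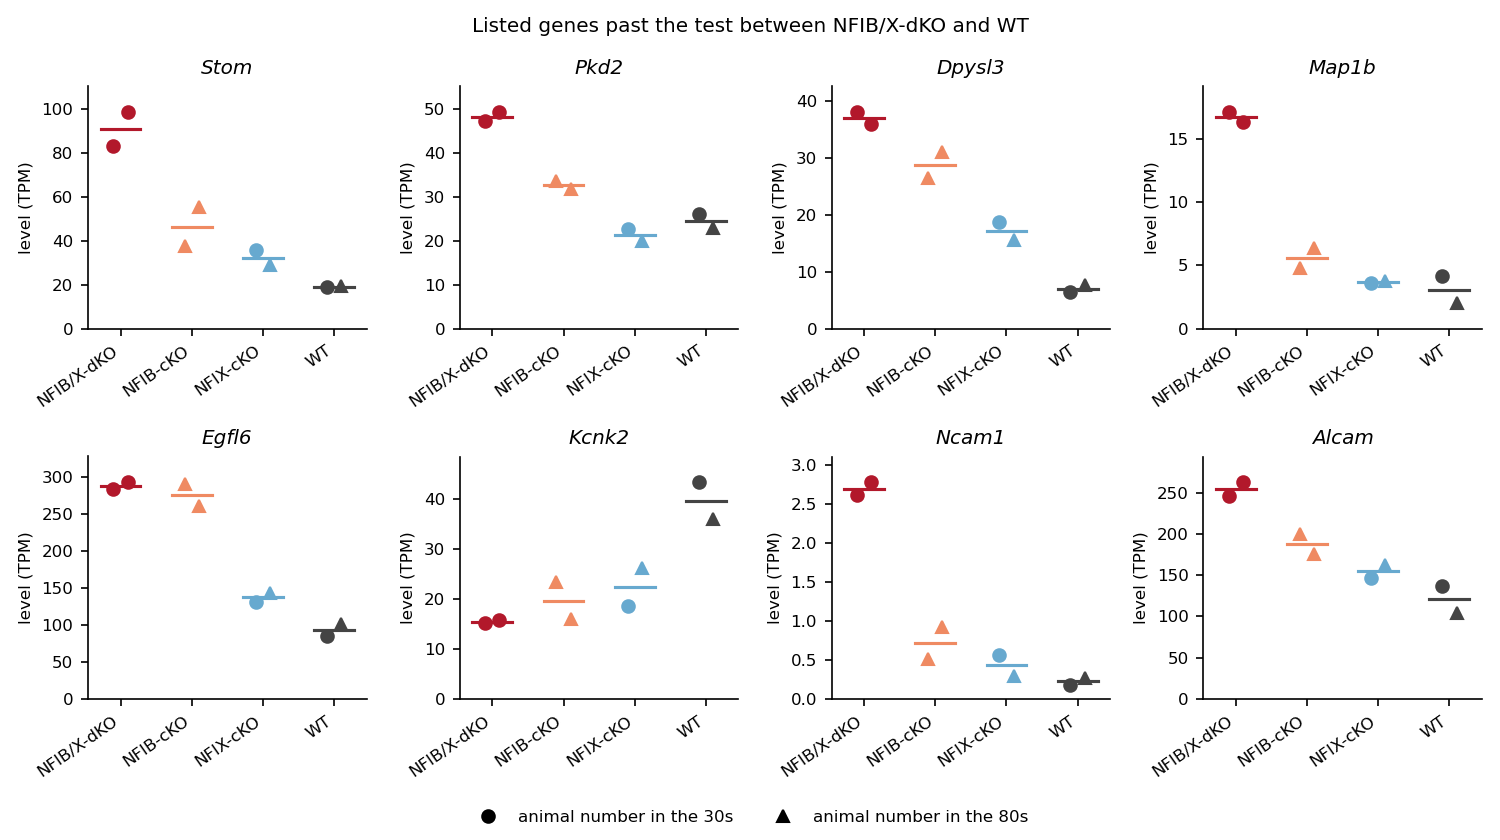
TPM (vertical axis, linear from 0) of 8 listed genes past the limma test between NFIB/X-dKO and WT, by group and library; circles are the 30s, triangles the 80s, and lines are means of 2. Stom and Dpysl3 descend from NFIB/X-dKO to WT, Map1b and Ncam1 stand apart in NFIB/X-dKO, Egfl6 is high in NFIB/X-dKO and NFIB-cKO, and Kcnk2 is highest in WT.

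Mcam also marks endothelium and pericytes, and Gap43 can come from Schwann cells, so those markers are given beside them. Endothelial markers summed to 6.54 to 6.98 TPM in NFIB/X-dKO, 7.06 to 7.51 in NFIB-cKO, 6.48 to 6.91 in NFIX-cKO, against 5.8 to 6.3 in WT, with Cdh5 and Cldn5 at most 0.02 TPM in any library. Pericyte markers summed to 65.79 to 80.45 TPM in NFIB/X-dKO, 72.49 to 86.41 in NFIB-cKO, 58.9 to 79.16 in NFIX-cKO, against 69.83 to 74.24 in WT, nearly all of it Cspg4, with Pdgfrb at most 0.08 and Rgs5 at most 0.03. Melanocyte markers summed to 80.86 to 86.74 TPM in NFIB/X-dKO, 85.72 to 113.7 in NFIB-cKO, 65.1 to 67.91 in NFIX-cKO, against 68.18 to 86.61 in WT, mostly Mitf. Tyrp1, an enzyme of melanin synthesis, had 7.23 and 6.13 TPM in NFIB/X-dKO, 5.42 and 5.41 in NFIB-cKO, 4.33 and 2.96 in NFIX-cKO, against 1.60 and 3.74 in WT (1.13 in NFIB/X-dKO over WT, limma, adjusted p = 0.13), and Mlana was at most 1.54 TPM, with its lowest values in WT (0.15 and 0.38). The 7 melanocyte genes tested had a median difference of 0.33 in NFIB/X-dKO against WT, and 6 of them, without Mlana, which passed the filter only through NFIB-cKO and NFIB/X-dKO 33, had 0.59 in NFIB-cKO against WT. What part such RNA has in the members' levels was not tested. In NFIB/X-dKO against WT, 0 of the 2 endothelial, 3 pericyte and 7 melanocyte genes tested were called by limma. There 1.62% of all genes were called higher and 1.26% lower, so a lack of calls in lists this short says little. Fibroblast markers summed to 55.76 to 68.27 TPM in NFIB/X-dKO, 58.93 to 86.94 in NFIB-cKO, 25.53 to 42.4 in NFIX-cKO, against 24.52 to 25.63 in WT. In NFIB/X-dKO and NFIB-cKO that was Col1a1 for the most part, which rose by 1.97 in NFIB/X-dKO (limma, adjusted p = 0.0219), while Col1a2 had 2.17 and 2.81 TPM in NFIB/X-dKO, against 11.76 and 8.01 in WT (-1.63, 0.223), and Col3a1 was at most 0.45 TPM. The median of these 2 tested genes, Col1a1 and Col1a2, was 0.17, and their part in the members' levels was not tested. Immune markers summed to 35.01 to 36.96 TPM in NFIB/X-dKO, 12.26 to 15.68 in NFIB-cKO, 15.95 to 52.1 in NFIX-cKO, against 28.38 to 41.04 in WT, with no call. All 10 bulge stem cell markers were tested, with a median difference of -0.49 in NFIB/X-dKO against WT, and 2 fell, where 1.26% of all genes were called lower: the transcription factor Lhx2 by 1.42 (0.00612) and Lgr5, a receptor for R-spondins, by 1.57 (0.0128). The Lhx2 call ended without NFIB/X-dKO 33 (0.0766) or 36 (0.0534), that of Lgr5 without these (0.133 and 0.0932) or WT 82 (0.0699), and that of Col1a1 without either NFIB/X-dKO library (0.126 and 0.189), without either WT library (0.0665 and 0.0654) and with no filter (0.0717).

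Across the 8 libraries the members' log2(TPM + 1) levels had a Pearson correlation of 0.928 between Piezo2 and Gap43, 0.654 between Piezo2 and Mcam, 0.342 between Gap43 and Mcam, -0.949 between Piezo2 and Trpv4, and -0.321 between Piezo2 and Piezo1. These describe 8 libraries that fall into 4 genotypes and share their scaling. Piezo2, Gap43 and Mcam were chosen for a rise in these same libraries, so positive correlations among them follow in part from the choice. Among 10279 genes, those closest to Piezo2 were Setd3 (0.989), a histidine methyltransferase of actin, Kcnn3 (0.986), a calcium-activated potassium channel, and Ogdhl (0.985). Closest to Gap43 were Cd59a (0.987), Nlgn1 (0.979) and Tmtc2 (0.978). Closest to Trpv4 was Lgr5 (0.992), with Cers4 (0.988) and Slc27a3 (0.98) next, closest to Piezo1 were Mafg (0.978), Gpsm1 (0.977) and Bcl2l11 (0.974), and closest to Mcam were Polb (0.958), Esr1 (0.956) and Smpdl3a (0.948). Esr1 encodes the oestrogen receptor, a part of which is built into CreER, which the 6 knockout libraries carry and the WT libraries do not.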

How the data were processed

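RNA sequencing of sorted hair follicle stem cells was analysed for 8 libraries in 4 groups of 2. The authors deposited a TPM table of all 8 libraries, and, for 5 of them, tables of each gene's expected count, FPKM, TPM and mean length, all made by RSEM, per the submitters' processing notes. FPKM entered no test. Per the submitters' processing notes the tools were Bowtie2 2.2.9 and RSEM 1.2.30 and the build mm10, and the annotation release was not given in the sources used here. Depth is known for those 5 libraries, and counting limits cover counting error only. Nothing says more of the replicates than their animal numbers.

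Fits used limma 3.58.1 (R 4.3.3) on log2(TPM + 1) over all 8 libraries, with a variance trend and Benjamini-Hochberg adjustment over 15434 genes with at least 1 TPM in at least 2 libraries, at an adjusted p under 0.05. Such differences understate the change of low genes. NFIB/X-dKO and NFIX-cKO were also compared with edgeR 4.0.16 (quasi-likelihood, TMM) on expected counts rounded to whole numbers, with DESeq2 1.42.0 as an alternative. The edgeR fit of 5 libraries was added after the lengths were seen. The procedure was tested on simulated data. From each list the up to 3 called genes with the smallest p were named, and the 3 genes of highest correlation with each member. Listed genes that passed the filter only through 1 group of a comparison were set apart from its counts, a choice made after seeing the data. The members, lists and tests were chosen with earlier results of these data known. Promoters are from RefSeq and coordinates from GENCODE M21.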

Additional observations from a re-analysis of the deposited data

How the results depend on the processing

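Piezo2, Gap43 and Mcam were chosen for their rise against WT, so a kept direction of those differences is not a check of them. Every called difference of Piezo2, Gap43 and Trpv4, and every difference of Piezo2, Gap43 and Mcam from WT, kept its direction under all alternatives run. Piezo1, which was not called, did not: its difference of 0.24 in NFIB-cKO from WT was -0.21 with the series as a covariate, -0.07 without NFIB-cKO 85 and -0.46 without WT 34, and that of -0.58 in NFIX-cKO was 0.13 without WT 82. Against WT, a pseudocount of 0.1 moved the NFIB/X-dKO differences of Piezo2 to 4.75, Gap43 to 5.13 and Mcam to 1.67. Counts of all genes called moved more. Without the filter on low values, NFIB/X-dKO against WT gave 270, NFIB-cKO against WT 29, NFIB/X-dKO against NFIB-cKO 71, and the count test 202. With the series as a covariate the counts were 200 (NFIB-cKO against WT), 44 (NFIX-cKO against WT) and 22 (NFIB/X-dKO against NFIB-cKO). Fitting the compared groups alone gave 3086 for NFIB/X-dKO against NFIB-cKO, 39 against NFIX-cKO, and 12 for NFIX-cKO against WT. A pseudocount of 0.1 gave 23 for NFIB/X-dKO against NFIB-cKO. The edgeR fit of 5 libraries, chosen after seeing the data, gave 1 call for NFIB/X-dKO against NFIB-cKO and 1 for NFIB-cKO against NFIX-cKO. DESeq2 gave 830 on the counts of NFIB/X-dKO and NFIX-cKO, where edgeR gave 59. The cause of these moves was not tested.

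Leaving out 1 library at a time gave 40 to 579 calls for NFIB/X-dKO against WT (445 with all), 11 to 157 for NFIB-cKO against WT (111), 13 to 18 for NFIX-cKO against WT (23). It gave 8 to 74 for NFIB/X-dKO against NFIB-cKO (35), 6 to 105 for NFIB/X-dKO against NFIX-cKO (121), 2 to 38 for NFIB-cKO against NFIX-cKO (19) and 0 to 6939 in the count test. The 0 came from edgeR without NFIB/X-dKO 33 or 36, with 813 and 811 genes at an unadjusted p under 0.05, where limma called 6 and 8. Median-of-ratios scaling turned the split of NFIB/X-dKO against WT to 200 higher and 243 lower, where the TPM gave 250 and 195, and that against NFIX-cKO to 35 and 55, where it gave 71 and 50. The median difference of all genes was 0.16 and 0.19 in these comparisons. A lone library left in a group was assumed to vary like the others.

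No paired analysis was possible because the groups share no animal numbers.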
